A study of Mus musculus with 12 samples.

Results

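Solute carrier (Slc) genes encode the membrane proteins that move sugars, amino acids, metals, choline and other small molecules into cells and between their compartments. The members described here are all probes of a mouse expression array whose annotated gene symbol is Slc followed by a digit, without Slc4a1 and Slc25a37, which amount to 354 of 19057 annotated genes, read by 649 of 45281 probes. A probe was counted as detected on an array at a detection p under 0.01, and it was kept if detected on at least 3 of 12 arrays. This left 65 probes of 56 Slc genes among 5498 kept probes. They were split into the mitochondrial Slc25 family, with 13 kept probes of 11 genes, and the carriers outside it, with 52 kept probes of 45 genes. The second group was divided by family into carriers of the plasma membrane (30 kept probes of 27 genes), carriers of the Golgi apparatus, endoplasmic reticulum, lysosomes and other internal membranes (17 of 13 genes), proteins that are only named after a carrier (3), and members left without a class (2). Classes follow the family and not every single member, so that a class does not give the place of each protein. For example, Slc46a3, a lysosomal carrier, was counted with its family at the plasma membrane.

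Most carriers of the plasma membrane work either as uniporters, which let a solute run down its gradient, or by coupling its movement to that of sodium, protons or another solute. Red blood cells depend on such carriers for glucose, anions and the amino acids taken up during their maturation, platelets take up serotonin from plasma through a dedicated carrier, and white blood cells use others to supply growth and to handle metals in phagocytic vacuoles. Proteins of the Slc25 family lie mostly in the inner mitochondrial membrane and exchange phosphate, nucleotides, glycine, carnitine esters and other metabolites between cytosol and matrix, and several of them serve heme synthesis in developing red cells.

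Whole blood RNA came from 3 wild type (WT) C57BL/6J Jax mice and 3 Pik3cg-/- mice, all females of 13 to 16 weeks on the same breeder diet. Pik3cg encodes the catalytic subunit of phosphoinositide 3-kinase γ, a signaling enzyme of blood cells. The knockout is a germline allele of 129 origin that was backcrossed to C57BL/6J and then bred within a closed colony, the control mice are not called littermates, and the deletion is not limited to blood cells. The RNA of each mouse was labelled in 2 reactions and each was hybridized to its own array, and the mice of a group are called A, B and C here.

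The 2 arrays of a mouse correlated at 0.969 to 0.981 over the kept probes, mice of the same genotype at 0.938 to 0.986 and mice of different genotypes at 0.928 to 0.966 (Pearson's r across probes, which are not independent replicates). The arrays gave no check of the genotype, since 1 Pik3cg probe reached detection on 2 of 6 WT and 2 of 6 knockout arrays and the other on none. Knockout mouse A stood apart from the others in platelet transcripts: over 11 detected platelet markers of 13 listed, its median deviation from the WT mean was -2.70 on the log2 scale, against -0.86 in mouse B and -0.63 in mouse C. The arrays of knockout mouse C detected the fewest probes, 3558 and 3696, against 4176 to 5511 on the arrays of the other 5 mice. In whole blood, fewer cells of a type and less RNA per cell cannot be told apart.

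Blood expressed a small part of the carrier repertoire at a level these arrays could detect. Of the 649 Slc probes, 33 were detected on all 12 arrays, 561 on none and 23 on 1 or 2, so that 10% were kept, against 12.1% of all probes. The share was 17.6% in the Slc25 family (13 of 74 probes), 13.1% for carriers of internal membranes (17 of 130) and 7.03% at the plasma membrane (30 of 427). Among families with many probes, the nucleotide sugar transporters of Slc35 had 9 of 46 probes kept and the zinc transporters of Slc39 had 5 of 25, whereas the organic ion transporters of Slc22 had 1 of 33 and the amino acid transporters of Slc7 had none that carries a solute, since the kept probe belongs to Slc7a6os, a gene on the strand opposite to a carrier. No probe was kept for the carriers of bile acids (13 probes), of nucleosides at the plasma membrane (12) or of anions in the Slc26 family (19). The same held for those members of the families 17, 18 and 32 that were classed as vesicular or lysosomal (21). A probe that is not detected can also be a poor probe. Of the 24 genes known from red cells that have a probe on the array, 10 had a kept probe. The glucose carrier Slc2a1, detected on 1 array, had none.

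**Figure D1:**
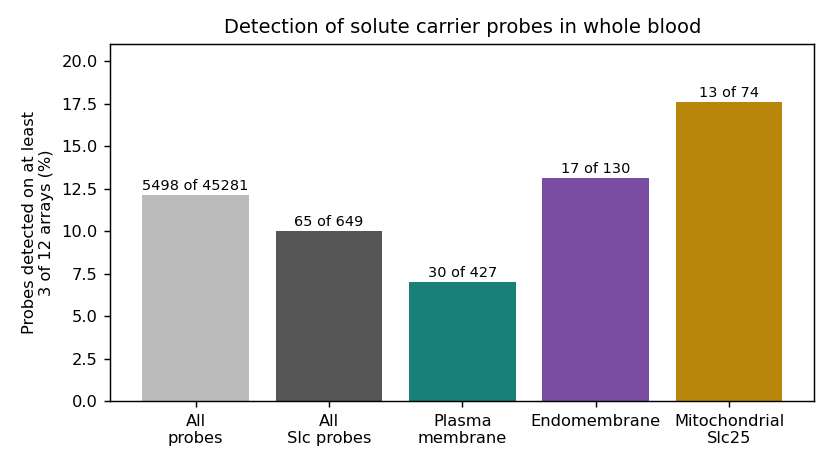
Share of probes detected on at least 3 of 12 arrays (vertical axis, %), for all probes on the array, all Slc probes and the 3 main classes of carriers. Bars carry the number of probes kept and the number on the array, and the share is lowest at the plasma membrane (7.03%) and highest in the Slc25 family (17.6%).

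The number of Slc probes detected per array was 57 to 62 in WT mice. In knockout mice it was 66 and 54 on the arrays of mouse A, 54 and 49 in mouse B, and 43 and 42 in mouse C. At the threshold itself, 2 Slc probes were detected on exactly 3 arrays, for Slc15a4 and Slc25a24, and 9 fell just outside with 2 arrays, among them those of the lactate carrier Slc16a3, the copper carrier Slc31a2 and the sodium and calcium exchanger Slc8a1.

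The comparison of Pik3cg-/- with WT mice asks which carriers differ in blood that lacks the kinase. It rests on log2 intensities of 3 mice against 3, tested with limma over all kept probes with Benjamini-Hochberg adjustment. Of the 65 Slc probes, 1 was lower in knockout mice at an adjusted p under 0.05 and 0 were higher, while 2.73% of all 5498 kept probes were called, 1.44% higher and 1.29% lower. At an unadjusted p under 0.05, 7 Slc probes were higher and 5 lower, together 12 of 65, against 21% of all kept probes. All 3 knockout mice lay above all 3 WT mice for 10 Slc probes and below them for 7. This is 26.2% of the Slc probes against 27.8% of all kept probes (13.4% above and 14.4% below). Taken over both directions, neither this share nor the 12 of 65 at an unadjusted p under 0.05 stood above that of all kept probes. The median log2 fold-change (Pik3cg-/- minus WT) was 0.04 over the Slc probes, and -0.02 over all kept probes. A change of at least 1.5-fold in the mean was seen for 6 Slc probes, all of them lower in knockout mice, where 14.8% of all kept probes reached it and 8.73% were lower. The median Slc probe had a 95% confidence interval of ± 0.448 log2 units, not adjusted for the number of probes, which limits the differences that can be resolved at a typical member.

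**Figure D2:**
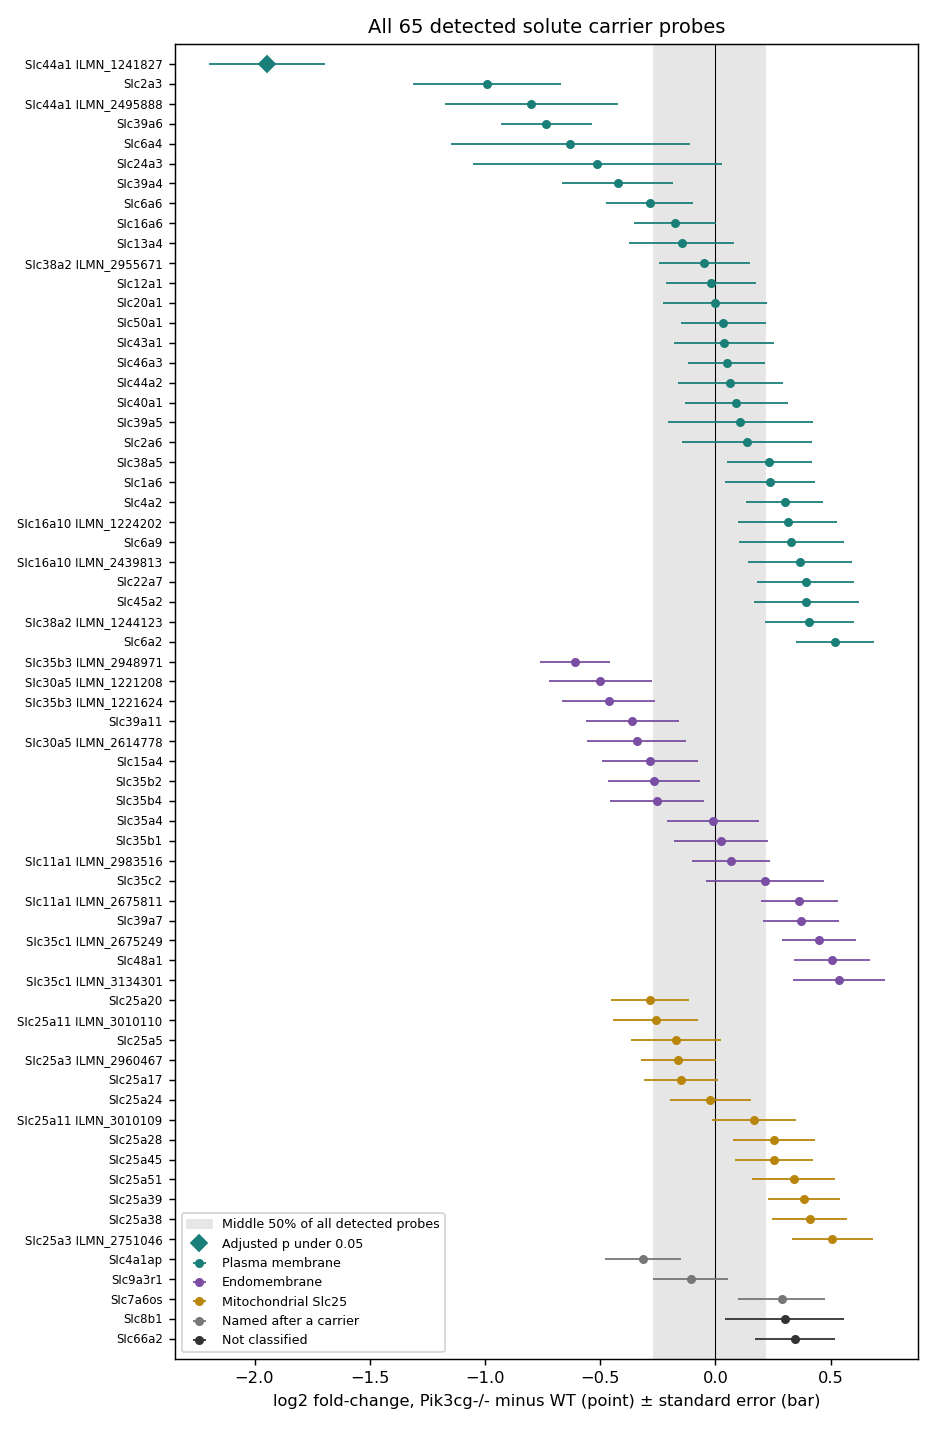
Log2 fold-change of each of the 65 detected Slc probes (point, Pik3cg-/- minus WT, horizontal axis) with its standard error (bar), grouped and coloured by class. The grey band holds the middle 50% of all detected probes, and probe identifiers are given for genes with several probes. The Slc44a1 probe ILMN_1241827 (diamond, -1.95) lies farthest from 0 and is the single one with an adjusted p under 0.05.

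The called probe belongs to Slc44a1, which encodes a choline transporter of the plasma membrane and mitochondria that supplies the synthesis of phosphatidylcholine. Probe ILMN_1241827 had log2 intensities of 8.68, 8.18 and 8.90 in WT mice A, B and C, and of 6.30, 6.59 and 7.03 in the knockout mice. The lowest WT mouse lay 1.15 log2 units above the highest knockout mouse, and the probe was detected on 6 of 6 WT arrays and on 0 of 6 knockout arrays. It thus passed the detection filter through its WT arrays alone. The log2 fold-change was -1.95 (SE, standard error, 0.25, adjusted p = 0.00703 from limma). Since the knockout signal was not above background, the difference has only a bound: with each knockout array set to at least its lowest detected value, the probe was at least 2.47-fold lower in knockout mice. The signals before normalization were 276 to 536 on WT arrays and 40.5 to 165 on knockout arrays, so that the groups were apart on the deposited scale as well.

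A second detected probe of Slc44a1 gave a smaller difference. Probe ILMN_2495888 read 8.70, 8.42 and 8.97 in WT mice and 6.94, 8.35 and 8.41 in knockout mice A, B and C. Knockout mice B and C were only just below the lowest WT mouse, and mouse A was far below. The log2 fold-change was -0.80 (SE 0.38, adjusted p = 0.267 from limma), and the probe was detected on 5 of 6 knockout arrays. Without knockout mouse A it was -0.32 (adjusted p = 0.331), whereas the first probe then kept a log2 fold-change of -1.78 (adjusted p = 0.008). The other 3 Slc44a1 probes on the array were detected nowhere. The probe sequences were not in the files used here, so that the transcripts read by the 2 detected probes were not compared. Slc44a2, the related choline transporter of neutrophils and platelets, had a log2 intensity of 10.68, 10.61 and 10.65 in WT mice and of 11.17, 10.68 and 10.29 in knockout mice. Its knockout values spread over both sides of the WT mice (log2 fold-change 0.07, standard error 0.23, adjusted p = 0.899 from limma).

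The 250 bases before the annotated start of Slc44a1 are shown because it carries the only called probe. They are credited to RefSeq (GRCm38.p6), lie on chromosome 4 at chr4:53440163-53440412 on the + strand and hold 81.2% G and C. Capitals in this and the next sequences mark matches on either strand to AGATAA (bound by GATA factors), CCNCNCCC (Krüppel-like factors), CCGGAA (ETS factors) or TGTGGT (RUNX factors), short motifs of factors active in red cell and platelet precursors.

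Slc44a1: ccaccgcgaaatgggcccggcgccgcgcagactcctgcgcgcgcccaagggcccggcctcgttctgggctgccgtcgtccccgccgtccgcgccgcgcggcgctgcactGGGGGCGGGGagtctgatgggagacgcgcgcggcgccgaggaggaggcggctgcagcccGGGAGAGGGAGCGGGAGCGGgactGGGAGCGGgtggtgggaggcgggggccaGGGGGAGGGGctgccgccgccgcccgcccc

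All matches in this window were to CCNCNCCC, which occurred in the same window of 73.8% of the 42 detected Slc genes with a promoter sequence. It occurred in 60.4% of 278 Slc genes, detected or not, and in 45.6% of 27025 genes. AGATAA was found in 4.76% of the detected Slc genes (7.91% of the 278 and 10.2% of all genes). CCGGAA was found in 26.2% (14.4% and 12.3%) and TGTGGT in 14.3% (11.5% and 14.2%). The share over all detected genes of the array was not computed. A match of letters is not a binding site, and its absence from a window says nothing about a factor.

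The lowest values of Slc2a3, Slc6a4 and Slc24a3 were those of knockout mouse A. Slc2a3, a high-affinity glucose transporter that platelets store in their granules and carry at their surface, read 11.20, 10.90 and 11.58 in WT mice and 9.50, 10.53 and 10.68 in knockout mice. All knockout mice were below all WT mice, with mouse A lowest. The log2 fold-change was -0.99 (SE 0.32) and did not pass (adjusted p = 0.137 from limma). Without mouse A it was -0.62 (adjusted p = 0.12).

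Slc6a4, the serotonin transporter through which platelets load their dense granules, read 8.45, 7.88 and 8.35 in WT mice and 6.19, 8.19 and 8.42 in knockout mice. Mouse A was far below every other mouse, and mice B and C lay within the WT range. The log2 fold-change of -0.63 (SE 0.52, adjusted p = 0.529 from limma) turned to 0.07 without mouse A. Slc24a3, which exchanges sodium for calcium and potassium, behaved alike with 9.05, 8.89 and 9.73 in WT mice and 7.30, 9.22 and 9.62 in knockout mice. Its log2 fold-change was -0.51 (SE 0.54, adjusted p = 0.63 from limma), and 0.19 without mouse A.

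The median of the platelet markers lay below the WT range in every knockout mouse, and that of the carriers listed for platelets in mouse A alone. Over the 4 detected members of a list of 8 carriers known from platelets (Slc2a3, Slc6a4, Slc24a3, Slc44a2), the median deviation from the WT mean was -1.82 in knockout mouse A, -0.02 in mouse B and -0.09 in mouse C. The 11 detected platelet markers summed to an intensity of 50790 to 73530 in WT mice, and to 14470, 40990 and 43160 in mice A, B and C of the knockout, with Itgb3 among those not detected. Of these 11 markers 8 had all knockout mice below all WT mice, against 14.9% of all genes, and 0 passed an adjusted p under 0.05 (limma). The part of the platelet share of blood RNA in the carrier values was not tested. Slc2a3 is also on the list of red cell carriers. The vesicular carriers Slc17a9 and Slc18a2 and the Slc35 member Slc35d3 were listed as well but had no kept probe. Slc17a9 was detected on 1 array, and Slc18a2 and Slc35d3 on none.

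**Figure D3:**
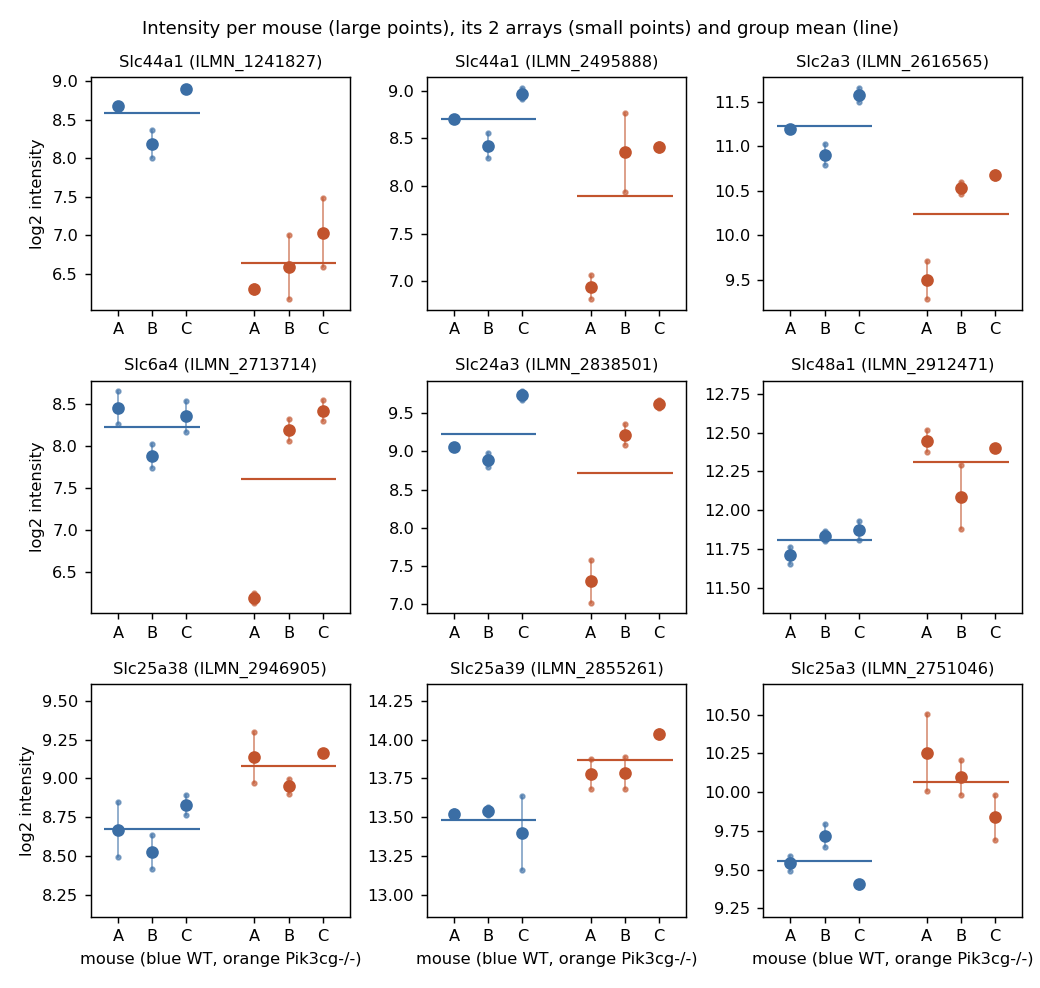
Log2 intensity (vertical axis) in WT mice A, B and C (blue) and Pik3cg-/- mice A, B and C (orange) for 8 genes, with both detected Slc44a1 probes; large points are mice, small points their 2 arrays and lines the group means, and each panel has its own range. The first Slc44a1 probe is low in all 3 knockout mice, while Slc6a4 and Slc24a3 are low in knockout mouse A alone.

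No metal carrier of the plasma membrane passed the test. Slc39a6, a zinc importer, read 8.11, 8.05 and 8.50 in WT mice and 7.63, 7.62 and 7.21 in knockout mice, so that the groups did not overlap. Its log2 fold-change of -0.73 (SE 0.20) missed the threshold (adjusted p = 0.0873 from limma). Slc39a4, which takes up zinc from food in the intestine, was detected on 5 of 6 WT arrays and 0 of 6 knockout arrays with means of 7.16 and 6.74, but the WT mean lay under the mean of the lowest detected values of the knockout arrays (7.28), and no fold-change is given. Slc40a1, the iron exporter ferroportin of macrophages and red cell precursors, had 8.54, 8.66 and 8.51 in WT mice and 9.05, 8.72 and 8.21 in knockout mice, which fell on both sides of the WT range (log2 fold-change 0.09, standard error 0.22).

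By brightest probe, the amino acid carriers of this paragraph had higher mean values in knockout mice, and none passed the test. They are not a whole class. The 4 detected genes of the Slc6 family, to which Slc6a9 belongs, had 2 higher and 2 lower means, with a median log2 fold-change of 0.02. Slc38a5, a glutamine transporter of red cell precursors and among the brightest carriers outside Slc25, read 11.49, 11.72 and 12.05 in WT mice and 12.01, 11.89 and 12.08 in knockout mice, with overlap (log2 fold-change 0.23, standard error 0.18). The glycine transporter Slc6a9, which feeds heme synthesis, had a log2 fold-change of 0.33 (SE 0.23), with a single knockout mouse, C at 8.74, above the WT range that ended at 8.17. Slc16a10, a transporter of aromatic amino acids, had 0.31 and 0.37 at its 2 detected probes. The stress-induced transporter Slc38a2 had 0.41 at its brighter probe and -0.05 at the other. Slc43a1, a transporter of large neutral amino acids, had 0.04. The adjusted p from limma ranged from 0.268 to 0.949 over the probes of the genes named in this paragraph.

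Slc6a2, the noradrenaline transporter of nerve endings, had the highest positive log2 fold-change by brightest probe, with 6.75, 6.98 and 6.93 in WT mice and 7.52, 7.19 and 7.51 in knockout mice. The groups did not overlap, but the probe was dim and was detected on 1 WT array and 4 knockout arrays (log2 fold-change 0.52, standard error 0.17, adjusted p = 0.137 from limma). Slc4a2, an anion exchanger that trades chloride for bicarbonate, also had all knockout mice above all WT mice, with 7.80, 7.87 and 7.99 against 8.42, 8.01 and 8.14 (log2 fold-change 0.30, adjusted p = 0.341). The taurine transporter Slc6a6 had a log2 fold-change of -0.28, the monocarboxylate carrier family member Slc16a6 of -0.17 and the glucose transporter family member Slc2a6 of 0.14, each with overlap. Over the 27 plasma membrane genes by their brightest probe, 16 log2 fold-changes were positive and 11 negative, with a median of 0.05. All knockout mice were above all WT mice for 2 of these genes and below for 3, which is 18.5% against 28.3% of all genes.

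Among carriers of internal membranes, Slc48a1, Slc35c1, Slc39a7 and Slc11a1 lay higher and Slc35b3 lower in every knockout mouse than in any WT mouse. By brightest probe, all knockout mice were above all WT mice for 4 of 13 genes and below for 1, which is 38.5%, against 28.3% of all 3822 genes (13.4% above and 14.9% below). The genes are few, and none passed the test. Slc48a1, which moves heme out of lysosomes and is used when macrophages recycle red cells and in red cell development, read 11.71, 11.84 and 11.87 in WT mice and 12.45, 12.09 and 12.40 in knockout mice. It was 1.42-fold higher in the mean (log2 fold-change 0.51, standard error 0.17, adjusted p = 0.139 from limma).

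Slc35c1, the GDP-fucose transporter of the Golgi apparatus, was above the WT range in all knockout mice at its brighter probe, with 8.50, 8.48 and 8.46 in WT mice against 8.94, 9.12 and 8.73 in knockout mice. Its log2 fold-changes were 0.45 and 0.54 at the 2 probes (adjusted p = 0.164 and 0.17 from limma), and the WT mice differed little from each other at the brighter one. Slc39a7, which releases zinc from the endoplasmic reticulum, had 7.66, 7.51 and 7.64 in WT mice and 8.20, 7.87 and 7.86 in knockout mice (log2 fold-change 0.37, adjusted p = 0.244). Slc11a1, which pumps metal ions out of the phagosomes of macrophages and neutrophils, had 10.13, 10.07 and 9.90 against 10.44, 10.20 and 10.57 at its brighter probe (log2 fold-change 0.37, adjusted p = 0.259) and a log2 fold-change of 0.07 at the dimmer one.

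On the lower side, Slc35b3 carries the sulfate donor PAPS into the Golgi apparatus. Its brighter probe read 8.28, 8.30 and 8.70 in WT mice and 8.16, 8.07 and 7.65 in knockout mice, and its other probe 8.39, 8.57 and 8.51 against 7.76, 7.90 and 7.98. At both probes all knockout mice were below all WT mice, with log2 fold-changes of -0.46 and -0.61 (adjusted p = 0.236 and 0.075 from limma). The zinc transporter Slc30a5 of the early secretory pathway had -0.34 and -0.50 at its 2 probes, with overlap between the groups.

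A pair of internal carriers was detected in WT mice alone. Slc15a4, a lysosomal carrier of histidine and peptides, was detected on 3 WT arrays and 0 knockout arrays, with means of 6.93 and 6.65. Slc39a11 was detected on 4 WT arrays and 0 knockout arrays, with means of 7.19 and 6.83. Both probes lay at the edge of background, their groups overlapped, and no fold-change is given. Slc4a1ap, an adaptor-like protein only named after a carrier, had 7.67, 7.75 and 7.70 in WT mice and 7.40, 7.59 and 7.19 in knockout mice (log2 fold-change -0.31, adjusted p = 0.313).

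The other detected carriers had groups that overlapped. Classed by family with the plasma membrane were the sugar transporter Slc50a1 (log2 fold-change 0.04), the phosphate transporter Slc20a1 (-0.0011), Slc46a3 (0.05) and the zinc importer Slc39a5 (0.11). In the same class, the glutamate transporter Slc1a6 had 0.24, the organic anion transporter Slc22a7 0.39 and Slc45a2 0.40. The kidney carrier of chloride, Slc12a1, had -0.02 and the sulfate carrier Slc13a4 had -0.15. Among nucleotide sugar carriers and their relatives, Slc35a4 had -0.01, Slc35b1 0.02, Slc35c2 0.22, Slc35b4 -0.25 and Slc35b2 -0.27. Of the proteins named after carriers and the members without a class, the scaffold protein Slc9a3r1 had -0.11, Slc7a6os 0.29, the mitochondrial sodium and calcium exchanger Slc8b1 0.30 and Slc66a2 0.34. The adjusted p from limma was 0.297 or higher for all of them.

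In the mitochondrial Slc25 family, 7 of 11 genes had a higher mean in knockout mice and 4 a lower one, and none of the 13 probes passed the test. The median log2 fold-change of the genes was 0.25, beside -0.03 over all 3822 genes by brightest probe and 0.04 over the 45 carrier genes outside the family, and it was 0.13 without knockout mouse A. All knockout mice were above all WT mice for 3 genes and below for 0, which is 27.3% against 28.3% of all genes (13.4% above and 14.9% below). The median deviation of the 11 genes was 0.37 in knockout mouse A, 0.22 in mouse B and 0.05 in mouse C, and it lay between -0.03 and 0.03 in the WT mice. At 3 of the 13 probes the unadjusted p was under 0.05, where 21% of all kept probes were.

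Slc25a39, which imports glutathione into mitochondria and is needed for heme synthesis, was the brightest member of the family. It read 13.52, 13.54 and 13.40 in WT mice and 13.78, 13.78 and 14.04 in knockout mice. The groups did not overlap, and the mean was 1.3-fold higher in knockout mice (log2 fold-change 0.38, standard error 0.16, adjusted p = 0.207 from limma). Slc25a38, which brings glycine into mitochondria for the first step of heme synthesis, read 8.67, 8.52 and 8.83 in WT mice and 9.14, 8.95 and 9.16 in knockout mice, again without overlap (log2 fold-change 0.41, standard error 0.16, adjusted p = 0.195). Slc25a3, the phosphate carrier of oxidative phosphorylation, read 9.54, 9.72 and 9.41 in WT mice and 10.26, 10.09 and 9.84 in knockout mice at its brighter probe (log2 fold-change 0.51, standard error 0.18, adjusted p = 0.155). Its other probe, detected on 6 WT and 3 knockout arrays, had a log2 fold-change of -0.16 with overlap, so that the 2 probes of this gene differed in sign.

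The promoter windows of these 3 genes are shown because they are the Slc25 genes whose groups did not overlap. For genes with several annotated starts, the most upstream was taken. The windows lie at chr11:102407518-102407767 on the - strand (Slc25a39), at chr9:120110132-120110381 on the + strand (Slc25a38) and at chr10:91123968-91124217 on the - strand (Slc25a3), each written in the direction of its gene.

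Slc25a39: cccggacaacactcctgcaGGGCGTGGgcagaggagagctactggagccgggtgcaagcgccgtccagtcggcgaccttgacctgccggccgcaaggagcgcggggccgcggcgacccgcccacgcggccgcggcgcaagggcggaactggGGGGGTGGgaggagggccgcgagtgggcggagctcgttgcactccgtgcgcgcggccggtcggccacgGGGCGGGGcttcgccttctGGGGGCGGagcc

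Slc25a38: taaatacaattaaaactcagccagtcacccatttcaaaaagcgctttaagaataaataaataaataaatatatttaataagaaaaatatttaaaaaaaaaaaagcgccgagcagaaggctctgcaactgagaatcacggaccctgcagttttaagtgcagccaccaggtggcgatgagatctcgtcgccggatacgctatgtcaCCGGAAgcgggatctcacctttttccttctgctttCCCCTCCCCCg

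Slc25a3: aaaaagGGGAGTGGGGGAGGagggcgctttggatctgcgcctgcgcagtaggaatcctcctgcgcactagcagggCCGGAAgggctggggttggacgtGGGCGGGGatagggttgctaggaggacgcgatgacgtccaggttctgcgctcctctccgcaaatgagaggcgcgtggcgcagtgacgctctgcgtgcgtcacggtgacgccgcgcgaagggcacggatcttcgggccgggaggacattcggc

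Slc25a39 held matches to CCNCNCCC alone, and both Slc25a38 and Slc25a3 also held CCGGAA. Over the 10 detected Slc25 genes with a promoter sequence, CCNCNCCC was found in 7 and CCGGAA in 5. AGATAA was found in 1 of them, Slc25a5.

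The remaining members of the family moved less. Slc25a5, an ADP/ATP carrier that is among its brightest members, read 11.38, 11.02 and 10.91 in WT mice and 11.20, 10.86 and 10.75 in knockout mice (log2 fold-change -0.17, standard error 0.20). Slc25a28, an iron importer of mitochondria, had a log2 fold-change of 0.25 (SE 0.18), Slc25a51, an importer of NAD, of 0.34, and Slc25a45 of 0.26. The carnitine-acylcarnitine carrier Slc25a20 had -0.29, the peroxisomal member Slc25a17 had -0.15 and the ATP-Mg carrier Slc25a24 had -0.02. The oxoglutarate carrier Slc25a11 had 0.17 at its brighter probe and -0.26 at its dimmer one, and all these groups overlapped.

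**Figure D4:**
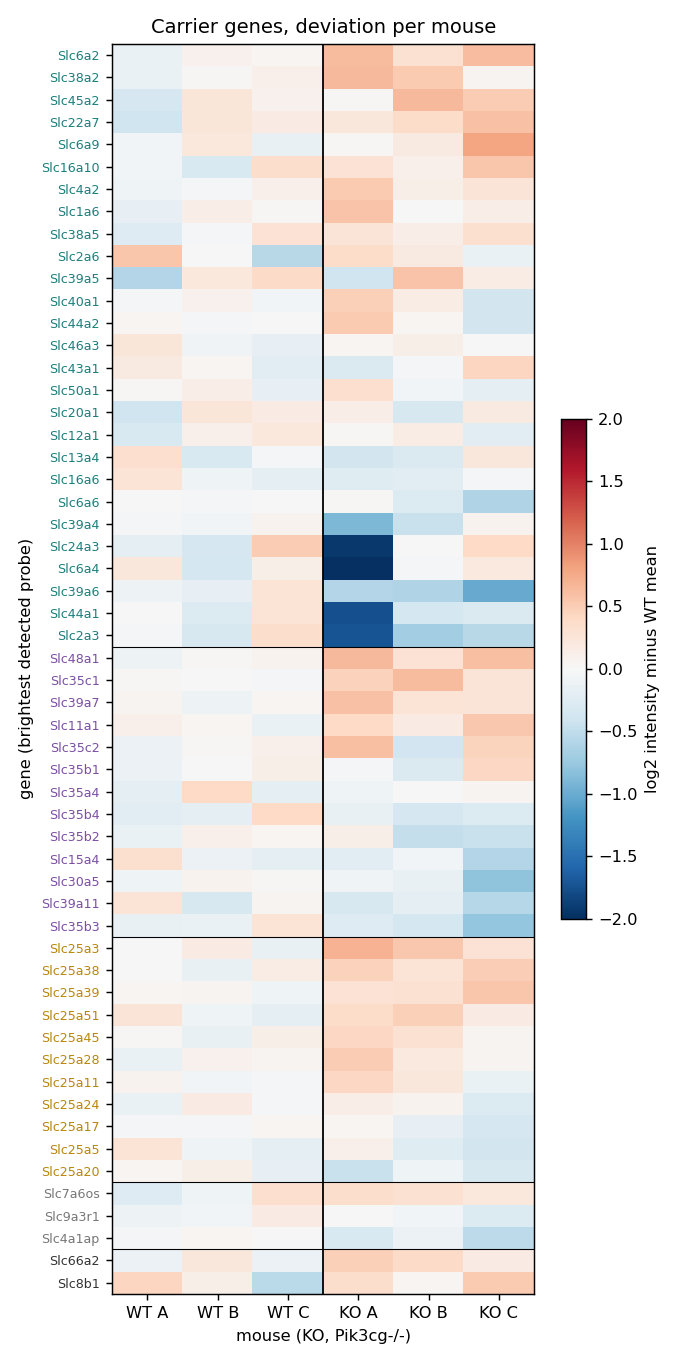
Deviation of the log2 intensity from the WT mean (colour, red above and blue below) for the 56 detected Slc genes by brightest probe (rows, sorted by fold-change within each class and coloured by class: plasma membrane, internal membranes, Slc25, named after a carrier, not classified) in each mouse (columns, KO for Pik3cg-/-). Slc24a3, Slc6a4, Slc44a1 and Slc2a3 are darkest in knockout mouse A, and the upper Slc25 rows are red in all 3 knockout mice.

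The medians of the listed red cell carriers and of the red cell markers lay above the WT range in every knockout mouse. Among 26 carriers known from red cells and their precursors, 10 were detected, and their median deviation from the WT mean was 0.29 in knockout mouse A, 0.16 in B and 0.46 in C. Of these 10 genes 9 had a higher mean in knockout mice, with Slc2a3 as the exception, and 0 passed the test. The median log2 fold-change was 0.28. Their summed intensity was 22040 to 23680 in WT mice and 25720 to 30400 in knockout mice, without overlap. Slc25a39, itself without overlap (means of 13.48 and 13.87), contributed most to this sum. By gene, all knockout mice were above all WT mice for 3 of the 10 and below for 1. This is 40% against 28.3% of all genes (13.4% above and 14.9% below), and the other 6 overlapped. The 7 detected red cell markers of 16 listed had median deviations of 0.61, 0.57 and 1.25 in the knockout mice, and summed to 77890 to 79500 in WT and 79950 to 90230 in knockout mice, sums that are mostly those of Alas2 (means of 16.09 and 16.08 on the log2 scale). One of them, the spectrin gene Sptb, was called higher (log2 fold-change 1.72, adjusted p = 0.00276 from limma), and Rhag, Epb42 and Klf1 were among the defining markers that were undetected. Mouse C had the highest median of the knockout mice in both lists. The part of the red cell share of blood RNA in these carriers was not tested.

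Carriers known from white blood cells showed no common direction. Of 22 listed, 5 were detected (Slc2a6, Slc11a1, Slc15a4, Slc16a6, Slc38a2), with 3 higher and 2 lower means and a median deviation of 0.37, 0.16 and -0.05 in knockout mice A, B and C, while the WT mice spread from -0.19 to 0.28. The 8 detected neutrophil markers had median deviations of 0.31, -0.11 and -0.20 in these mice, and the 6 detected monocyte markers of 10 listed, all with a lower mean in knockout mice and 0 called, had -0.46, -0.71 and -0.25, with WT mice from -0.66 to 0.66. None of the detected B cell (4), T cell (5) and NK cell (4) markers passed the test. The part of these cells in the carrier values was not tested. The 3 lists of carriers were drawn up from general knowledge of these cells with earlier results of these arrays known.

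**Figure D5:**
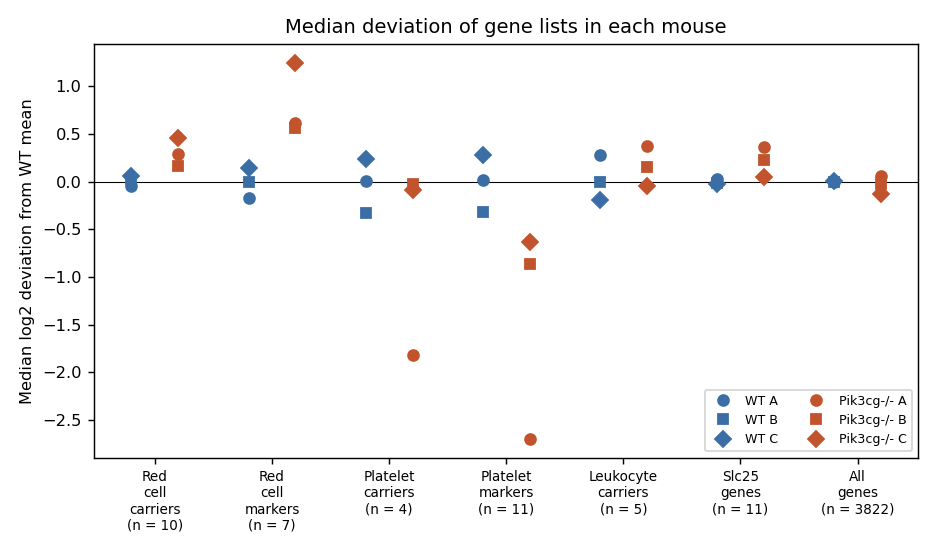
Median deviation from the WT mean (log2, vertical axis) of gene lists in each mouse (WT blue, Pik3cg-/- orange, with a circle, square and diamond for mice A, B and C), with the number of detected genes under each list. Platelet carriers and platelet markers are both lowest in knockout mouse A (-1.82 and -2.70), and red cell carriers and markers both highest in knockout mouse C (0.46 and 1.25).

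Genes with several probes show how far a single probe can be read. Of the 9 Slc genes with more than 1 kept probe, 6 had the same sign at all probes and 3 had opposite signs (Slc25a3, Slc25a11 and Slc38a2). By brightest probe of a gene, 0 of 56 Slc genes passed an adjusted p under 0.05, since the called probe of Slc44a1 is the dimmer of its 2, while 2.49% of all genes were called by the same rule, 1.2% higher and 1.28% lower.

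Among genes that anchor, drive or complement carriers, 56 were listed (subunits of the sodium pump, aquaporins, channels of the outer mitochondrial membrane, sideroflexins, kinases that regulate cotransporters and others), 49 had a probe and 23 were detected. Of these 1 was called higher and 1 lower, where 1.2% and 1.28% of all genes were, and the median log2 fold-change was -0.02. Embigin (Emb), which escorts monocarboxylate carriers to the plasma membrane, read 9.98, 9.93 and 9.67 in WT mice and 5.50, 5.32 and 5.74 in knockout mice, and was detected on all WT arrays and no knockout array. The difference therefore has only a bound, and Emb was at least 5.96-fold lower in knockout mice. Its log2 fold-change of -4.34 (adjusted p = 1.02e-05 from limma) rests on knockout values below detection, and the probe was kept through its WT arrays alone. The kinase Sgk1, which stimulates many sodium-coupled carriers, rose by 0.94 log2 units (SE 0.18, adjusted p = 0.0349), a call that was lost without WT mouse A, B or C or without knockout mouse B (adjusted p = 0.121 to 0.136). The knockout mice of the sodium pump regulator Fxyd5 (11.28 to 12.30) and of the pump subunit Atp1b3 (10.78 to 11.61) lay on both sides of the WT mice, with log2 fold-changes of 0.02 and -0.02. The serine carrier Sfxn1, at -0.52 (adjusted p = 0.444), was low in knockout mouse A, with 8.81 against 10.22 and 10.06 in the other 2 knockout mice. The 10 Slc genes on the chromosome that holds Pik3cg were undetected on every array (19 probes), so that no carrier near the targeted locus was compared.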

How the data were processed

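Illumina MouseWG-6 v2 arrays, 2 per mouse, gave 12 profiles of whole blood RNA from 6 mice. Per the file headers, the intensity values are average bead signals, from which background had been subtracted but which were not normalized between arrays, and each has a detection p-value. The deposited log2 values were, per the authors' methods, variance-stabilized and quantile normalized in lumi. The version of lumi is not given in the sources used here. Intensities were corrected, normalized and logged by neqc in limma 3.58.1 (R 4.3.3) with an offset of 16. The log2 values of the 2 arrays of a mouse were averaged, since they share an RNA extract, and genotypes were compared with lmFit and eBayes over all 5498 kept probes, with p adjusted by the Benjamini-Hochberg method. The number of mice limits precision, and with 3 mice per group a two-sided exact permutation test of a single probe cannot go below 0.1. The step was tested on simulated data. Probes were named from the platform annotation where it gives 1 symbol, and 883 kept probes had none. A gene is represented by its brightest kept probe. Where a genotype was undetected on all its arrays, each of those arrays was set to at least its lowest detected value for the bound. Members and gene lists were chosen with earlier results of these data known. Named are members past the threshold, the brightest, those with the largest non-overlapping differences, those detected in 1 genotype and the members of the cell type lists. All other members are given by value. Alternatives were the authors' log2 values, other background correction, offset, normalization and filters, single technical arrays, the mouse as a random block, mouse letters as a block, other variance models, the methods' analysis of variance, the mean of a gene's probes, and each mouse left out in turn. Promoter windows of 250 bases came from RefSeq (GRCm38.p6), which had one for 42 of 56 detected Slc genes. Python 3.11.15 with matplotlib 3.10.9 drew the figures. Genome coordinates of probes were not used here.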

Additional observations from a re-analysis of the deposited data

How the results depend on the processing

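The call of Slc44a1 (probe ILMN_1241827) held in 19 of 21 alternatives in which the probe was tested, with log2 fold-changes from -2.27 to -0.80 and adjusted p from 9.04e-05 to 0.152. It was lost with technical array 2 alone (-1.62, adjusted p = 0.0554) and under the methods' analysis of variance (-0.80, adjusted p = 0.152). The number of Slc probes called, 1 in the report, all outside Slc25, was 0 when only probes detected on all 12 arrays were tested, which leaves this probe out, with technical array 2 alone and under the analysis of variance. It was 5, again all outside Slc25, with all 12 arrays and the mouse as a random block (Slc44a1, Slc2a3, Slc39a6, Slc48a1 and Slc35b3) and with array weights (Slc44a1, Slc39a6, Slc35b3 and both Slc35c1 probes). Array weights were first estimated by REML, which stopped before convergence, and the gene-by-gene estimate was taken after its calls had been seen. The REML weights gave 17 Slc calls, 12 outside and 5 in Slc25, 14 partner calls and 1761 calls in all, against 596 by the gene-by-gene estimate and 150 in the report. Of all probes, 86 were called without a filter, 47 with those detected on all 12 arrays (80.9% of them higher, against 52.7%), 83 with technical array 1, 471 with the random block, 259 with a trended robust prior, 257 with scaling to the 75th percentile, 3 under the analysis of variance, and 40 to 344 with 1 mouse left out, most without knockout mouse A. Fitted by gene with the mean of its probes, 1 Slc gene, Slc44a1, was called in place of 0, by a mean that includes the probe undetected in knockout mice.

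The median log2 fold-change of the Slc25 genes, 0.25 in the report, was 0.11 with the authors' log2 values and under the analysis of variance, and 0.13 to 0.32 with 1 mouse left out, lowest without knockout mouse A. That outside Slc25, 0.04, was 0.16 with probes detected on all 12 arrays and otherwise between -0.02 and 0.10. Without a filter, all knockout mice were above all WT mice at 46 Slc probes and below at 37, where the report has 10 and 7, and with probes detected on all 12 arrays below at 2. With 1 mouse left out these counts were 12 to 18 above and 8 to 16 below, the highest being without knockout mouse C (18) and without knockout mouse A (16). The letters A to C were not taken to pair mice, since the deviations of same-lettered mice correlated at 0.176, -0.179 and 0.179. With the letters as a block, 1 Slc probe and 111 of all probes were called, the partner calls went from 2 to 1, and no other Slc call changed. The headers name no slide, so that a block by slide was not run.

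Of 31 named Slc values, 25 kept their sign in every alternative. With 1 mouse left out, Slc6a4 ranged from -1.04 to 0.073, Slc24a3 from -0.96 to 0.19 and Slc44a2 from -0.16 to 0.28, each changing sign without knockout mouse A. Slc40a1 changed sign there too (-0.11) and with technical array 2 (-0.094). Slc24a3 was 0.0064 by REML weights. Slc43a1 was -0.049 with technical array 2, -0.016 and -0.030 by gene-by-gene and REML weights, and -0.16 to 0.20 with 1 mouse left out, negative without WT mouse C or knockout mouse C. Slc2a6 ranged from -0.14, without WT mouse C, to 0.41. Among partners, Fxyd5 was -0.0078 with cyclic loess, -0.042 with technical array 1, -0.073 and -0.14 by both kinds of weights, and -0.27 to 0.24 with 1 mouse left out, negative without WT mouse C or knockout mouse A. Atp1b3 was 0.0050 and 0.0058 by both kinds of weights and -0.22 to 0.19 with 1 mouse left out, positive without knockout mouse C. Sgk1 missed the threshold in 8 alternatives, among them no filter, technical array 2, the block, the analysis of variance and each WT mouse left out, where 1 partner was called in place of 2. With probes detected on all 12 arrays 1 was called as well, since Emb was not tested. The partner count was 1 to 3 with 1 mouse left out, 6 with the random block and 4 with gene-by-gene weights. Causes were not tested. The median Slc probe has a 95% interval of ± 0.448 log2 units, which limits what can be measured.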
